A study of Homo sapiens with 6 samples.

Results

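The genes described here are the ligands and receptors of the TNF superfamily, followed in a lung cancer cell line grown as a monolayer and inside a gel. They were taken by name from the protein-coding rows of the table, as genes whose symbol starts with TNFSF or TNFRSF together with TNF, LTA, LTB, LTBR, CD40, CD70, CD27, FAS, FASLG, NGFR and EDA2R. That gave 43 of the 60504 genes in the table, 17 ligands and 26 receptors. One receptor of the family is not reported here.

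HCC827 is a human lung adenocarcinoma line with mutant EGFR, and the labels name no drug, allele or transgene in either group, apart from a ROCK inhibitor in the enzyme mix used when tumoroids were passaged. In the 2D group the cells grew in flasks for 4 to 6 days from 1000000 seeded cells, and the 3D group was grown as tumoroids for 12 to 16 days in drops of Matrigel, a gel of basement membrane proteins, of a kind low in growth factors, from 50000 seeded cells. The same serum-containing medium was used for both, and the 3D cultures were started from dissociated monolayers. Poly(A) RNA was sequenced in 3 libraries per group, and the comparison asks which genes are expressed at other levels in gel than in monolayer. Culture time, seeding, gel contact and geometry differed together between the groups and cannot be told apart. Nothing in the labels tells if libraries of 1 group were grown apart, so the p-values here reflect only the spread among these samples, which may be technical.

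Ligands of this family are mostly membrane proteins that form trimers and can be cut from the cell surface by proteases, and they act by clustering their receptors. Receptors with a death domain in their cytoplasmic tail can bind adaptors that activate caspases, receptors without one bind TRAF adaptors and signal mainly to NF-kB and MAP kinases, and decoy receptors bind ligand without a working signalling tail. Lung epithelial cells are known mainly as carriers of the receptors, whereas many of the ligands are known from activated lymphocytes and myeloid cells.

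The values are TPM, a share of all transcripts corrected for transcript length, so levels can be compared between genes within a library. TPM keeps no sequencing depth, so library depth is unknown, counting intervals cannot be had, and a 0 means only that the gene is listed at 0. The first principal component of the log2 values separated the cultures, and the second set the third library of each culture apart from the other libraries of its culture. Of 15042 genes that averaged 1 TPM or more over the 6 libraries, 10.2% were called higher and 2.12% lower in 3D by limma on log2(TPM + 1), at a Benjamini-Hochberg adjusted p under 0.05. The median log2 fold change of these genes was 0.12 rather than 0. It became -0.03 with median-ratio scaling and -0.04 with quantile normalization, and the share of calls that were higher in 3D went from 82.8% to 58.5% and 60.1%. Log2 fold changes below are 3D minus 2D on the log2(TPM + 1) scale, which understates the change of genes at low TPM.

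All 9 epithelial and lung adenocarcinoma markers examined, among them EPCAM, NKX2-1 and NAPSA, had a mean above 1 TPM. They summed to 4911 to 8818 TPM in 3D and 7691 to 9944 TPM in 2D. KRT7, at 525, 699 and 869 TPM in 3D and 1216, 1165 and 1222 in 2D, was lower in every 3D library. So was KRT18, at 890, 813 and 1515 TPM against 1693, 1614 and 1977. SFTPB was higher in every 3D library, at 7.28, 1.49 and 9.71 TPM against 0.58, 0.41 and 0.92 in 2D. The other markers of this list overlapped between the cultures. None of 6 T and NK cell markers reached a mean of 1 TPM, with sums of 0.47 to 1.12 TPM in 3D and 0.24 to 0.54 in 2D. CD3D, at 0.83, 0.78 and 0.47 TPM in 3D and 0.32, 0.14 and 0 in 2D, was higher in every 3D library. CD2 was at 0 in every library, and the other T and NK cell markers overlapped. None of 4 B and plasma cell markers reached a mean of 1 TPM either, with sums of 0.47 to 1.04 TPM in 3D and 0.80 to 2.20 in 2D. PTPRC, the common leukocyte antigen, was listed at 0.25, 0.03 and 0.06 TPM in 3D and at 0 in all 2D libraries. Of 6 myeloid markers, CD68 and CD14 passed 1 TPM as a mean over the 6 libraries. CSF1R did not, but had 1.52, 1.65 and 1.06 TPM in 3D and 0.28, 0.48 and 0.88 in 2D. LYZ, at no more than 0.3 TPM, was also higher in every 3D library, and CD68, CD14, ITGAM and FCGR3A overlapped between the cultures. CD68, a lysosomal protein of many cell types, had 45.1, 86.5 and 76.6 TPM in 3D and 95.4, 96.1 and 68.5 in 2D. Without it the myeloid markers summed to 3.57 to 5.47 TPM in 3D and 2.96 to 3.58 in 2D. Endothelial markers, 4 in number, summed to 1.51 to 3.98 TPM in 3D and 0.68 to 1.46 in 2D. Of these, KDR had 1.72, 2.5 and 0.64 TPM in 3D and 0.06, 0.08 and 0.01 in 2D. CDH5 and VWF were also higher in every 3D library, and PECAM1 overlapped between the cultures. The sums of 6 fibroblast markers were 6.99 to 12.1 TPM in 3D and 2.10 to 2.96 in 2D. COL1A1 was the only fibroblast marker above a mean of 1 TPM over the 6 libraries. It had 5.26, 10.65 and 6.76 TPM in 3D and 2.02, 2.37 and 2.5 in 2D. LUM had 1.49, 1.21 and 0.8 TPM in 3D and 0.08, 0.36 and 0.12 in 2D. Both were higher in every 3D library, COL3A1 was at 0 throughout, and the other fibroblast markers overlapped. The part of the higher CD3D, PTPRC and CSF1R values and of the higher fibroblast and endothelial sums in the results was not tested.

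Of the 43 genes, 22 passed the filter of a mean of at least 1 TPM and were tested, 7 ligands and 15 receptors. TNF, CD70, TNFSF9 and TNFRSF9 rose in 3D, 0 fell and the other 18 missed the threshold (limma). At an unadjusted p under 0.05, 7 more would be counted, 5 with higher and 2 with lower values in 3D. No share of all tested genes at that unadjusted p was worked out, so these 7 have no background to be read against. The 4 of 22 that rose stand beside 10.2% of all tested genes called higher, and the 0 that fell beside 2.12% called lower. The median log2 fold change of the 22 was 0.42, beside 0.12 over all tested genes. TNF, CD70 and TNFRSF9 had a 2D mean under 1 TPM and passed the filter through their 3D values, and no gene passed through its 2D values alone, so these counts lean towards higher values in 3D by construction. All libraries of the 3D group lay above all of the 2D group in 9 of the 22, where 27.3% of all tested genes did so, and below in TNFRSF12A only, where 9.4% did so. In these bulk libraries more cells that express a gene and more of its RNA per cell cannot be told apart.

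**Figure D1:**
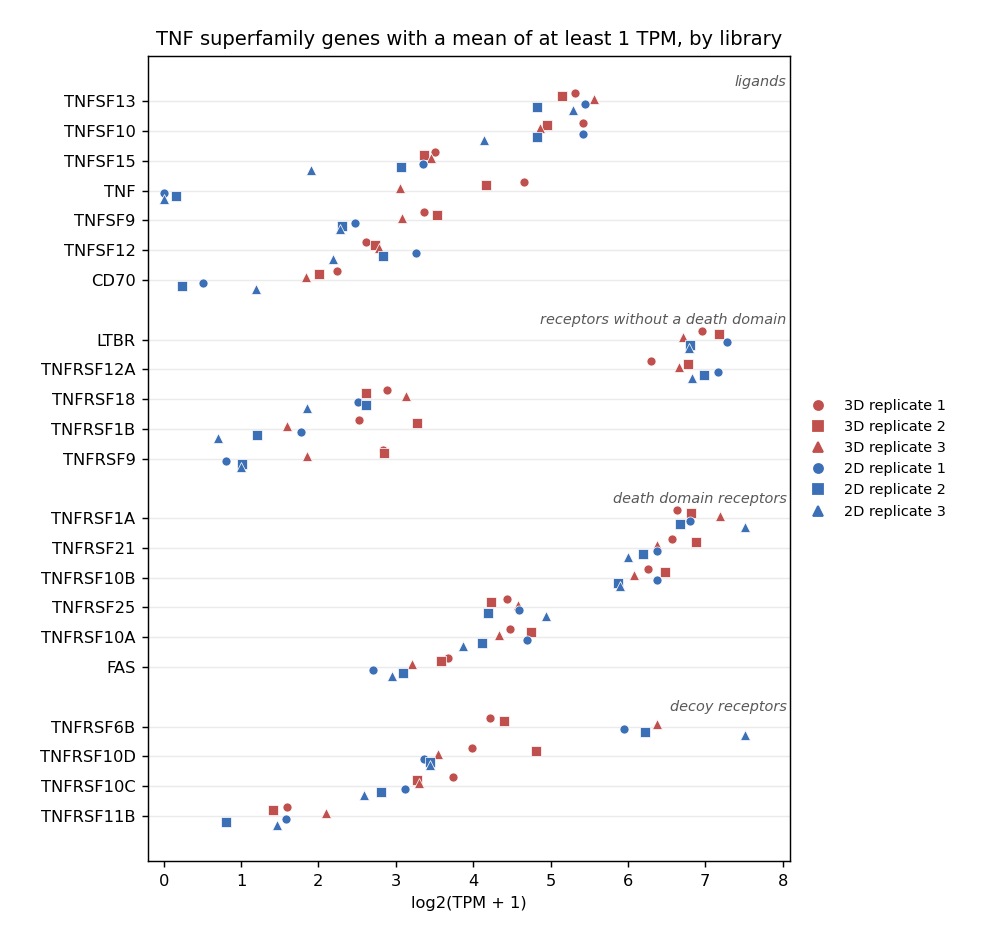
Each row is one of the 22 tested genes, in 4 classes, and each point is a library on a log2(TPM + 1) axis, with colour for the culture and shape for the replicate number. LTBR and TNFRSF1A are among the genes furthest to the right in both cultures, TNF stands near 0 in every 2D library, and for TNFRSF6B the third library of each culture is the highest of its group.

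Promoter sequences from RefSeq (GRCh38.p14) were found for 28 of the 43 genes, 3 of the 4 that rose among them. The 250 bases before the annotated start are shown for TNF and TNFSF9, since both rose, read 5′ to 3′ on the gene's strand, with the letters TATAAA, the core of a TATA box, in capitals. For TNFRSF9 a stretch of 30 bases is shown, with overlapping matches to the consensus NF-kB motif in capitals.
TNF, chr6:31575315-31575564, plus strand: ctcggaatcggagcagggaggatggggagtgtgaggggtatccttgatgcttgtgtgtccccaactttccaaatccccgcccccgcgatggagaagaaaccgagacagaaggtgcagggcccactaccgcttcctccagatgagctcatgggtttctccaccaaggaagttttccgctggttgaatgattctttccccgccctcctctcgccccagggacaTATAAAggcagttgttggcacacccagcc
TNFSF9, chr19:6530776-6531025, plus strand: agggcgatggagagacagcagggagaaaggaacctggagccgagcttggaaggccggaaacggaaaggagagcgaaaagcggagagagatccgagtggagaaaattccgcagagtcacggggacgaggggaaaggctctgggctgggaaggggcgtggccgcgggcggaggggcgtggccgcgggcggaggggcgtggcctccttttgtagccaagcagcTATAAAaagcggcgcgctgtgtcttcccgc
TNFRSF9, chr1:7940894-7940923, minus strand: gagctgtggtGGGAATTTCCCatgagaccc

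The TATAAA letters begin 29 bases before the RefSeq start of TNF and 30 bases before that of TNFSF9. GENCODE 29 starts TNFSF9 earlier than RefSeq does, so the last 27 bases shown for it, with the end of its TATAAA letters, lie in an exon of that annotation. Searched on both strands, TATAAA stood in the 250 bases of 4 of the 28 matched genes (TNF, TNFSF9, TNFSF10 and TNFRSF18) and in 10.7% of 35116 RefSeq promoter windows. The consensus NF-kB motif, a match of 10 bases, stood in 3 of 28 (TNFRSF9, LTB and TNFSF14) and in 9.96% of all windows. In TNFRSF9 it was matched from base 74 to 65 before the start on the gene's strand and, shifted by 1 base, on the other, within an exon that GENCODE 29 places there. The AP-1 motif TGANTCA stood in 5 of 28 (CD27, FAS, TNFRSF9, TNFSF14 and TNFSF15) and in 6.57% of all windows. In TNFRSF9 it stood from base 44 to 38 before the start. These are matches of letters within short windows and say nothing about binding in these cells.

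Among the ligands, TNF showed the widest gap between the cultures. TNF, the founding cytokine of the family and a trigger of NF-kB signalling and inflammation, was listed at 24.1, 16.95 and 7.32 TPM in 3D and at 0, 0.12 and 0 TPM in 2D. Every 3D library was far above every 2D library, and within 3D the third library had the lowest value. The log2 fold change was 3.90 (SE 0.38, limma adjusted p = 0.0018), and the call held in each of 17 alternative analyses, with adjusted p from 0.000846 to 0.0184. Because 2D values are at or near 0, the size depends on the pseudocount, with 6.80 at 0.1 TPM and 1.98 at 5 TPM. PTPRC, at 0.25, 0.03 and 0.06 TPM in 3D and 0 in all 2D libraries, was also higher in every 3D library. Which cells the TNF RNA came from was not tested.

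TNF lies on chromosome 6 (GRCh38, 31575567 to 31578336, plus strand), between LTA, 1.24 kb before it, and LTB, 2.19 kb after it. LTA and LTB are lymphotoxins, which form a membrane trimer that acts on LTBR. LTA was listed at 0.04, 0.21 and 0.05 TPM in 3D and 0.09, 0 and 0 in 2D, and LTB at 0.71, 0.67 and 0.92 TPM in 3D and 0.27, 0.15 and 0 in 2D. LTB was thus higher in every 3D library at a level under the filter, and LTA overlapped between the cultures.

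CD70, the ligand of the lymphocyte receptor CD27, and TNFSF9, the ligand of the T cell costimulatory receptor TNFRSF9, are neighbours on chromosome 19 with no protein-coding gene between them. CD70 (6583183 to 6604103, minus strand) had 3.74, 3.01 and 2.58 TPM in 3D against 0.42, 0.18 and 1.28 TPM in 2D, with a log2 fold change of 1.38 (SE 0.29, limma adjusted p = 0.0257). TNFSF9 (6530999 to 6535928, plus strand) had 9.27, 10.5 and 7.45 TPM in 3D against 4.54, 3.92 and 3.86 TPM in 2D, with a log2 fold change of 0.97 (SE 0.17, limma adjusted p = 0.0151). The groups did not overlap for either gene, and 2D replicate 3 was the highest 2D library for CD70 and the lowest for TNFSF9. The gap between both genes is 47254 bases. The next protein-coding gene after CD70 is TNFSF14, a ligand of LTBR, which stood at no more than 0.05 TPM in any library.

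Both calls rested on most of the libraries. CD70 was no longer called when replicate 1 or 2 of either culture was left out, with no filter, or under quantile normalization (limma, highest adjusted p 0.0998). For TNFSF9 this happened when 3D replicate 1, 3D replicate 2 or 2D replicate 2 was left out (highest adjusted p 0.0773). The direction held throughout.

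The other 4 tested ligands did not pass the test. TNFSF13, also called APRIL and known as a survival factor of plasma cells, had the highest ligand level in both cultures, at 39.8 ± 6.11 TPM in 3D and 36.1 ± 7.81 in 2D (mean ± SD, n = 3, as below). TNFSF10, also called TRAIL, a ligand that can trigger cell death, had 33.3 ± 7.54 TPM in 3D and 28.6 ± 12.5 in 2D. The library values of these ligands overlapped with each other and between the cultures. TNFSF15, known as a costimulator of T cells, had 10.4, 9.29 and 9.92 TPM in 3D and 9.23, 7.36 and 2.75 in 2D, with the groups apart by a small margin (limma adjusted p = 0.23). TNFSF12, also called TWEAK, had 5.57 ± 0.40 TPM in 3D and 6.07 ± 2.51 in 2D. TNFSF12 and TNFSF13 share exons with a readthrough gene, TNFSF12-TNFSF13, which was listed at 0.41, 0 and 0 TPM in 3D and 0.94, 0 and 1.25 in 2D, so the division of reads among the 3 is uncertain.

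The 10 ligands under the filter were LTA, LTB, TNFSF12-TNFSF13, FASLG, TNFSF4, TNFSF8, TNFSF11, TNFSF13B, TNFSF14 and TNFSF18, and TNFSF12-TNFSF13 held their highest library value, 1.25 TPM. FASLG, the ligand of FAS, was listed at 0 in all libraries but 1, which had 0.06 TPM. TNFSF13B, the B cell survival factor also called BAFF, had 0.34 ± 0.14 TPM in 3D and 0.32 ± 0.22 in 2D.

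**Figure D2:**
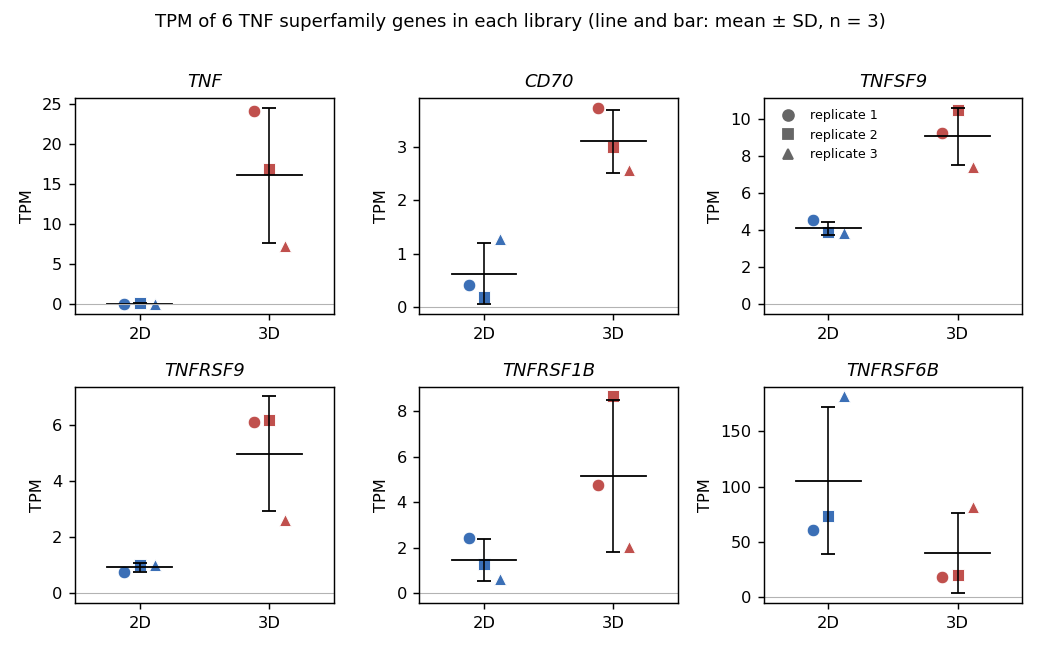
TPM of 6 genes in each library on axes that include 0, with replicate numbers as shapes and mean ± SD (n = 3) in black. The 3D points of TNF, CD70, TNFSF9 and TNFRSF9 all lie above their 2D points, whereas those of TNFRSF1B and TNFRSF6B overlap, with the third libraries low for TNFRSF1B and high for TNFRSF6B.

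Of the 5 tested receptors without a death domain, 1 was called. TNFRSF9, the receptor of TNFSF9 and an activation marker of T cells, rose with its ligand. It had 6.12, 6.19 and 2.62 TPM in 3D and 0.74, 1.01 and 1.00 TPM in 2D. The 2D libraries lay close together, and the third 3D library was the lowest of its group but above all of them. The log2 fold change was 1.58 (SE 0.30, limma adjusted p = 0.0178), and the call did not survive leaving out replicate 1 or 2 of either culture, or testing with no filter (highest adjusted p 0.0821). The gene lies on chromosome 1 (GRCh38, 7915894 to 7943165, minus strand).

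TNFRSF1B, the second receptor of TNF, is known mainly from leukocytes and endothelium. It had 4.76, 8.66 and 2.01 TPM in 3D and 2.43, 1.3 and 0.62 TPM in 2D. The groups overlapped only because the third 3D library lay under the first 2D library. The gene did not pass the test (log2 fold change 1.24, SE 0.45, limma adjusted p = 0.11), and without 3D replicate 3 it did (log2 fold change 1.67, adjusted p = 0.0388).

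LTBR and TNFRSF12A were the most abundant receptors without a death domain. LTBR, the lymphotoxin receptor, had 123.7, 143 and 104 TPM in 3D and 154, 110.5 and 109.8 TPM in 2D, with full overlap (log2 fold change -0.01, 95% confidence interval -0.44 to 0.42). Its exons overlap those of SCNN1A on the other strand. TNFRSF12A, the receptor of TNFSF12 and a gene known to be induced by growth factors and injury, had 77.5, 109 and 99.9 TPM in 3D and 142, 126 and 112.8 TPM in 2D. Every 3D library lay below every 2D library, but the gene did not pass the test (log2 fold change -0.42, SE 0.17, limma adjusted p = 0.136). It passed with median-ratio scaling, at a log2 fold change of -0.59 and a limma adjusted p of 0.0488, where 4.45% of all tested genes were called lower. TNFRSF18, a costimulatory receptor of T cells, had 6.43 ± 1.3 TPM in 3D and 4.14 ± 1.34 in 2D, with the groups just apart (limma adjusted p = 0.173).

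The other 10 receptors of this class were under the filter. CD40, the receptor through which T cells license antigen-presenting cells, had 0.52, 0.84 and 0.64 TPM in 3D and 0.08, 0.03 and 0.21 in 2D. TNFRSF11A, the receptor RANK, had 0.52, 1.01 and 0.78 TPM in 3D and 0.40, 0.31 and 0.11 in 2D, and TNFRSF19 had 0.26, 0.82 and 0.26 TPM in 3D and 0.11, 0.09 and 0.07 in 2D. Each of these 3 was higher in every 3D library. Together with LTB they made 4 of the 21 genes under the filter whose 3D values all lay above the 2D values, and none lay below. Of all genes under the filter and listed above 0 somewhere, 8.56% lay above and 2.75% below in this way. The 21 also hold 2 genes listed at 0 in all libraries, a kind that these shares leave out. In a fit without the filter CD40 and LTB had limma adjusted p = 0.0601 and 0.0654, and no gene under the filter was called. TNFRSF4 and TNFRSF17 were listed at 0 in all 6 libraries, and CD27, TNFRSF8, TNFRSF13B, TNFRSF13C and EDA2R stood at no more than 0.26 TPM in any library.

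Of the 7 death domain receptors, 6 were tested and none was called (limma). An unadjusted p under 0.05 was reached by 2, both with higher values in 3D, again without a share of all tested genes beside them. TNFRSF1A, the main receptor of TNF, had 98.4, 111.5 and 146 TPM in 3D and 110.6, 100.8 and 181 in 2D, and the third library was the highest in both cultures (log2 fold change -0.11, 95% confidence interval -0.69 to 0.47). TNFRSF21, a death receptor with a known role in neurons and lymphocytes, had 93.6, 116 and 81.9 TPM in 3D and 82.2, 72.4 and 63.0 in 2D, which is a log2 fold change of 0.41 (SE 0.17, limma adjusted p = 0.146). TNFRSF10B, the TRAIL receptor also called DR5, had 75.7, 88.2 and 66.6 TPM in 3D and 81.8, 57.6 and 58.6 in 2D, and its values overlapped.

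FAS, the receptor of FASLG, had 11.8, 11.0 and 8.23 TPM in 3D and 5.51, 7.52 and 6.74 TPM in 2D. The groups were apart, with 3D higher, yet the gene missed the threshold (log2 fold change 0.57, SE 0.18, limma adjusted p = 0.0809) and passed it only without 3D replicate 3 or without both libraries numbered 3 (adjusted p down to 0.044). Exons of FAS overlap those of ACTA2 on the other strand. TNFRSF10A, the TRAIL receptor DR4, averaged 22.1 ± 3.44 TPM in 3D against 18.3 ± 5.90 in 2D, and TNFRSF25, the receptor of TNFSF15, averaged 20.5 ± 2.55 against 23.4 ± 6.27, each with overlap. Exons of both overlap other genes. NGFR, the low-affinity neurotrophin receptor, was under the filter at 0.13 ± 0.12 TPM in 3D against 0.04 ± 0.02 in 2D.

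**Figure D3:**
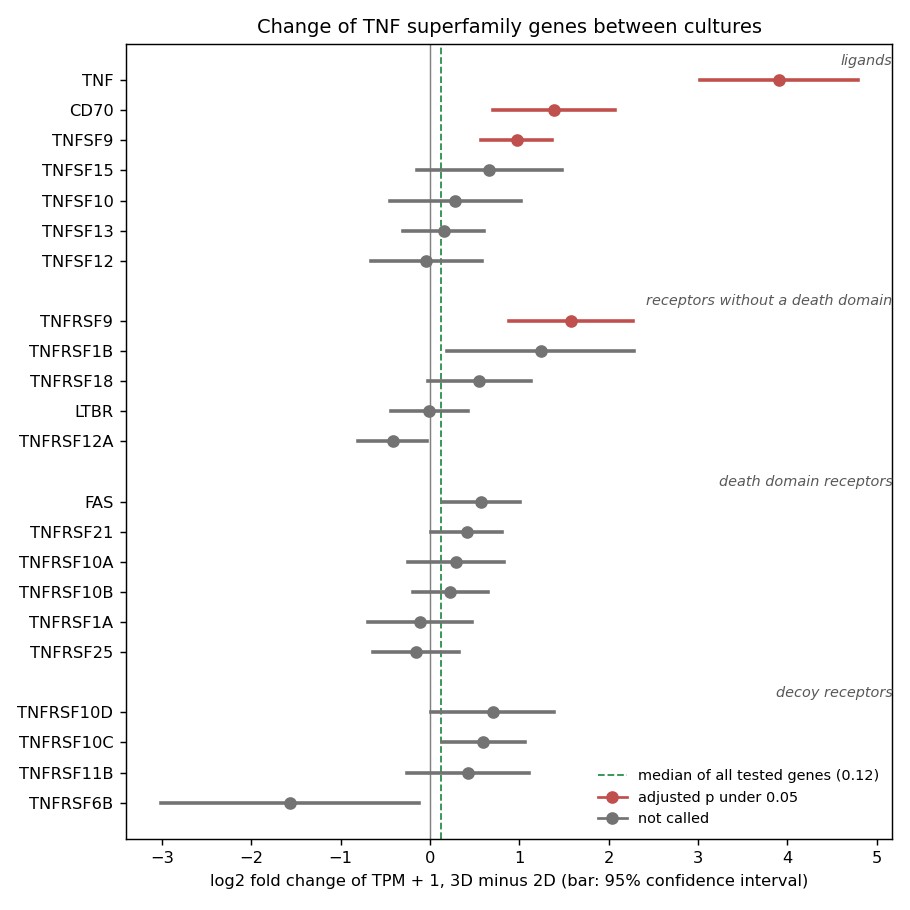
Log2 fold changes (3D minus 2D, of TPM + 1) of the 22 tested genes with 95% confidence intervals from limma, by class, with called genes in red. The interval of TNF lies furthest from 0, that of TNFRSF6B is the widest, and the dashed line marks the median of all tested genes at 0.12.

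All 4 decoy receptors passed the filter and none was called (limma). At an unadjusted p under 0.05, 2 had higher and 1 lower values in 3D, with no share of all tested genes to set beside them. TNFRSF6B, a secreted decoy also called DcR3 that binds FASLG, TNFSF14 and TNFSF15, had 17.5, 20.1 and 81.9 TPM in 3D and 60.9, 73.7 and 182 TPM in 2D. The first and second 3D libraries lay below all 2D libraries, and the third 3D library lay between those of 2D replicates 2 and 3. Its log2 fold change of -1.57 (SE 0.62) did not pass the test (limma adjusted p = 0.134). Without 3D replicate 3 it passed at -2.26 (limma adjusted p = 0.0283), where 3.68% of all tested genes were called lower. The gene lies on chromosome 20 (GRCh38, 63696651 to 63698684, plus strand) and shares 1141 exonic bases with the readthrough gene RTEL1-TNFRSF6B, listed at 1.31, 3.24 and 1.48 TPM in 3D and 2.94, 1.65 and 1.40 in 2D. How reads were divided between these genes is uncertain.

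The decoys of TRAIL had the opposite sign. TNFRSF10C had 12.3, 8.64 and 8.86 TPM in 3D and 7.66, 6.00 and 5.02 in 2D, which is a log2 fold change of 0.60 (SE 0.20, limma adjusted p = 0.0912). TNFRSF10D had 14.9, 27.1 and 10.7 TPM in 3D and 9.33, 9.84 and 9.82 in 2D, which is a log2 fold change of 0.70 (SE 0.30, limma adjusted p = 0.152), and passed the test only without 3D replicate 3 or without both libraries numbered 3 (adjusted p down to 0.0496). For each of them every 3D library lay above every 2D library. These genes and the death receptors TNFRSF10A and TNFRSF10B stand next to one another on chromosome 8 and resemble each other in sequence, so how reads were split among them is uncertain. TNFRSF10C and TNFRSF10D together made 21.9%, 23.9% and 18.6% of the summed TPM of the 4 TRAIL receptor genes in 3D and 13.7%, 17.6% and 17.05% in 2D. TNFRSF11B, the soluble decoy osteoprotegerin, had 2.32 ± 0.85 TPM in 3D and 1.50 ± 0.66 in 2D.

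**Figure D4:**
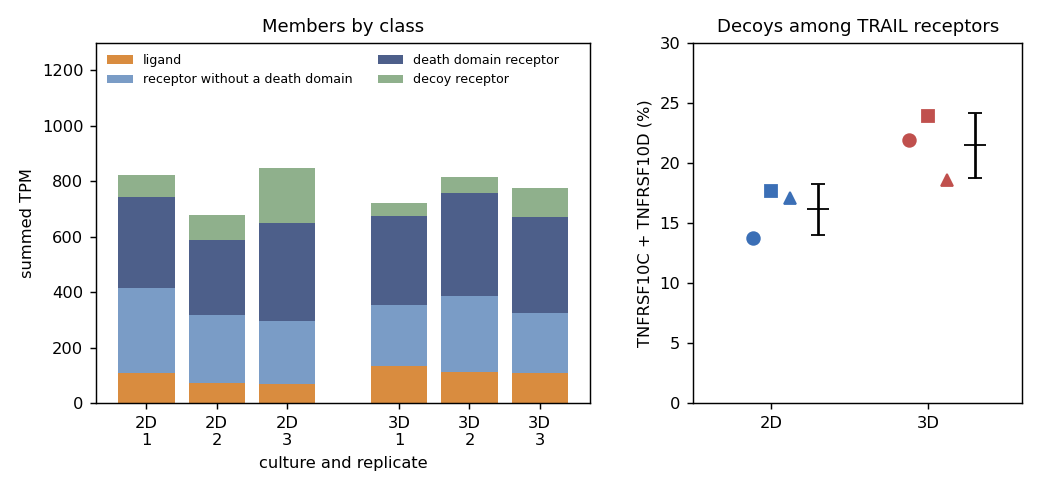
Left, summed TPM of the 43 genes in each library, stacked by class from 0; right, TNFRSF10C and TNFRSF10D as a percentage of the summed TPM of TNFRSF10A, TNFRSF10B, TNFRSF10C and TNFRSF10D, with mean ± SD (n = 3). Receptors make up most of every bar, the decoy part is largest in 2D replicate 3 at 198 TPM, and the TRAIL decoy share is 18.6% or more in 3D and 17.6% or less in 2D.

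Summed over each class, ligands had 109 to 135 TPM in the 3D libraries and 67.8 to 109 TPM in 2D, of which TNF made 6.71% to 17.8% in 3D and at most 0.163% in 2D. Death domain receptors summed to 321 to 371 TPM in 3D and 272 to 353 in 2D, and receptors without a death domain to 218 to 275 and 228 to 306. Decoy receptors summed to 46.8 to 105 TPM in 3D and 79.9 to 198 in 2D. TNFRSF6B made 34.9% to 78.2% of the decoy sum in 3D and 76.3% to 91.6% in 2D, and without it the sum was 22.8 to 37.4 TPM in 3D and 16.6 to 19.0 in 2D.

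In order of level, the 5 most abundant genes in 3D were LTBR, TNFRSF1A, TNFRSF21, TNFRSF12A and TNFRSF10B, with means from 124 to 76.8 TPM. In 2D they were TNFRSF1A, TNFRSF12A, LTBR, TNFRSF6B and TNFRSF21, from 131 to 72.5 TPM. Neighbours in these orders differed by less than the SD of at least 1 of them, except TNFRSF12A and TNFRSF10B in 3D, whose means differed by more than either SD. TNF ranked 12th of the 43 by mean TPM in 3D and 32nd in 2D.

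Ligands and receptors were then set side by side. Of 22 ligand and signalling receptor pairs known for the family, both genes averaged 1 TPM or more for 7 pairs in 3D and 4 in 2D. The pairs above that level in both cultures were TNFSF10 with TNFRSF10A, TNFSF10 with TNFRSF10B, TNFSF12 with TNFRSF12A and TNFSF15 with TNFRSF25. Those above it in 3D only were TNF with TNFRSF1A, TNF with TNFRSF1B and TNFSF9 with TNFRSF9, the last because TNFRSF9 averaged 0.92 TPM in 2D. CD70 had no such partner, since CD27 stood at no more than 0.17 TPM in any library, and CD40LG, the ligand of CD40, was listed at 0 in all. The receptors LTBR and FAS were expressed while their ligands LTB and FASLG stayed under 1 TPM in every library.

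The third 3D library had the lowest 3D value in 12 of the 22 tested genes, among them all 4 that rose. The same held for 37.3% of all tested genes and 59.0% of all genes called higher. Only 1 gene of the family rose without 3D replicate 1, without 3D replicate 2 or without 2D replicate 2, which was TNF each time, where 2.2%, 2.53% and 2.71% of all tested genes were called higher. Without 2D replicate 1, TNF and TNFSF9 rose, where 4.87% of all tested genes did. Without 3D replicate 3, 7 rose and 1 fell, against 10.7% and 3.68% of all tested genes: FAS, TNFRSF1B and TNFRSF10D joined the 4, and TNFRSF6B was the gene that fell. Without both libraries numbered 3, 7 rose and 1 fell as well, against 15.2% and 8.24%, and under quantile normalization 3 rose and 0 fell, against 5.78% and 3.83%.

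Of the genes that act downstream of the receptors, TNFAIP3 had the largest increase in 3D. A list of 55 genes covered adaptors, kinases, caspases, ubiquitin enzymes and sheddases. It was chosen by known function, but with earlier results of these data known. It held 52 tested genes, of which 9 rose and none fell (limma). At the same adjusted threshold, 10.2% of all tested genes were called higher and 2.12% lower. At an unadjusted p under 0.05, 19 of the 52 had higher and 3 lower values in 3D. The share of all tested genes at that unadjusted p was not worked out. The median log2 fold change of the list was 0.30, beside 0.12 over all tested genes, and 40 of the 52 had values above 0, where 60.8% of all tested genes did. With median-ratio scaling or quantile normalization, 2 of the 52 rose, where 6.27% and 5.78% of all tested genes were called higher.

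TNFAIP3, which edits ubiquitin chains and damps signalling from TNF receptors, rose with the largest change of the list, from 3.28, 2.34 and 4.57 TPM in 2D to 262, 178 and 110 TPM in 3D (log2 fold change 5.33, SE 0.32, limma adjusted p = 0.000241). Its call held in every alternative run. Within 3D its order over the libraries was that of TNF, highest in the first and lowest in the third. The third was the lowest 3D library in 59.0% of all genes called higher. How many of those genes had the whole order was not worked out. SPATA2, which recruits the deubiquitinase CYLD to the TNF receptor complex, rose from 6.49 ± 0.60 to 13.1 ± 2.07 TPM (log2 fold change 0.91, limma adjusted p = 0.0159). CYLD itself averaged 10.8 ± 2.83 TPM in 3D against 7.85 ± 0.80 in 2D, short of the threshold (limma adjusted p = 0.238).

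TRAF1, an adaptor that binds receptors such as TNFRSF9 and TNFRSF1B, rose from 0.73 ± 0.25 to 2.54 ± 0.74 TPM (log2 fold change 1.02, limma adjusted p = 0.036). With a 2D mean under 1 TPM it passed the filter through its 3D values, as did no other gene of the list. TRAF2 had 13.7 ± 1.97 TPM in 3D and 15.0 ± 2.16 in 2D. RIPK1, the kinase of the TNF receptor complex, rose from 8.15 ± 0.82 to 12.1 ± 0.19 TPM, and BIRC2, a ubiquitin ligase of that complex, from 27.4 ± 1.45 to 39.7 ± 1.20 TPM. BIRC3, a related ligase, had 63.1, 69.4 and 41.7 TPM in 3D and 21.4, 17.2 and 47.6 TPM in 2D. Its groups overlapped through 2D replicate 3, and without that library it passed the test (log2 fold change 1.52, limma adjusted p = 0.0127). TAB3, a partner of the kinase TAK1, and MAP3K5, a stress kinase, rose with log2 fold changes of 0.67 and 0.74.

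ADAM17, the protease that releases TNF from the cell surface, rose from 17.9, 17.1 and 24.6 TPM in 2D to 35.4, 35.7 and 28.7 TPM in 3D (log2 fold change 0.73, SE 0.18, limma adjusted p = 0.0377). ADAM10, a related sheddase, rose from 66.0 ± 5.09 to 97.02 ± 11.7 TPM (log2 fold change 0.54, limma adjusted p = 0.0433). The groups did not overlap for either protease. The calls of RIPK1, BIRC2, TRAF1, TAB3, MAP3K5, ADAM17 and ADAM10 were lost under median-ratio scaling and quantile normalization, and whenever replicate 1 or 2 of either culture was left out (limma, highest adjusted p 0.161). With no filter all of these but BIRC2 were lost, and RIPK1, ADAM10 and ADAM17 also when the fit had no trend, RIPK1 and ADAM10 also without mitochondrial genome genes. Those of TRAF1 and RIPK1 were also lost without either library numbered 3, and that of MAP3K5 without 2D replicate 3. SPATA2 was not called when 3D replicate 1, 3D replicate 2 or 2D replicate 2 was left out (highest adjusted p 0.0821).

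CASP8, CFLAR, FADD and TRADD, which act between death receptors and caspases, did not pass the test. CASP8, the initiator caspase, had 87.4, 76.9 and 87.3 TPM in 3D and 57.1, 45.4 and 66.8 TPM in 2D (log2 fold change 0.58, limma adjusted p = 0.0588), and CFLAR, which blocks its activation, had 103, 124 and 85.3 TPM in 3D and 79.7, 70.6 and 57.9 in 2D (0.57, limma adjusted p = 0.079). Both had all 3D values above all 2D values. Without 2D replicate 3 CASP8 passed the test, and without 3D replicate 3 CFLAR did. The adaptors FADD, with 29.8 ± 5.25 TPM in 3D and 35.1 ± 6.83 in 2D, and TRADD, with 23.5 ± 6.52 and 22.9 ± 3.88, overlapped between the cultures. Of the 6 caspase-related genes tested, 4 had an unadjusted p under 0.05, each with higher values in 3D, and none was called by limma. How many of all tested genes reached that unadjusted p was not worked out.

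**Figure D5:**
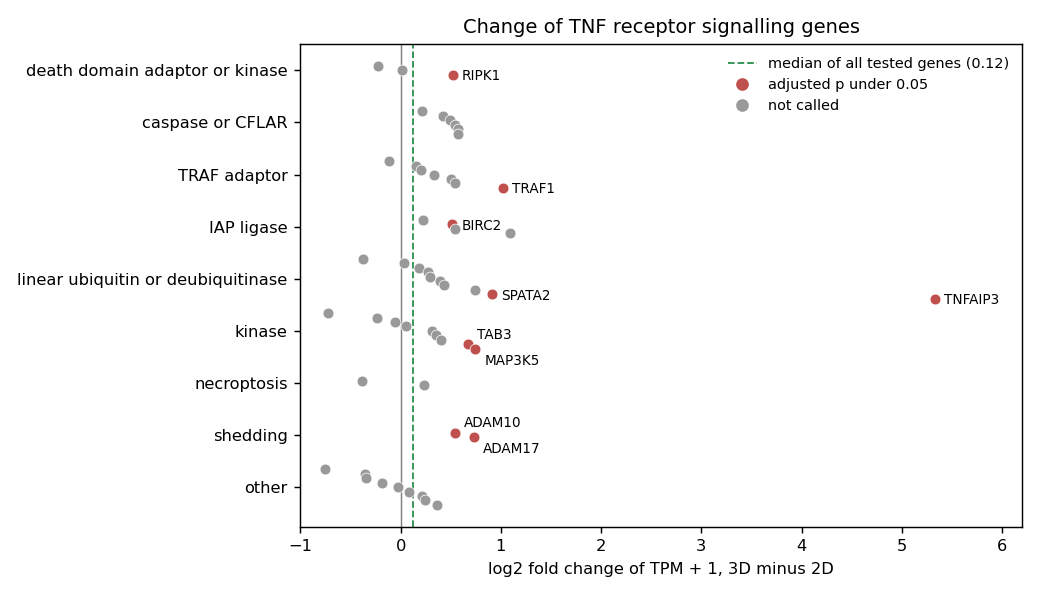
Each point is one of 52 tested genes of TNF receptor signalling, placed by its log2 fold change (3D minus 2D, of TPM + 1) within its group, with called genes in red and named. TNFAIP3 stands alone at 5.33, the other called genes lie between 0.52 and 1.02, and none of the called genes lies below 0.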

How the data were processed

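RNA of HCC827 cells was sequenced from 3 libraries of 3D and 3 of 2D culture. Per the labels' protocols, DNase-treated total RNA with an integrity number above 9 was selected for poly(A), and directional libraries were read as single 75 nt reads. The authors deposited 1 table of TPM for 60504 genes. The submitters' processing notes name hg38, RSEM 1.3.1, STAR 2.7.0d and cutadapt 2.3, without their settings. The labels name no annotation release, strand setting or filter. Reads of overlapping genes on opposite strands may therefore not be told apart.

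The 15042 genes averaging 1 TPM or more were fitted on log2(TPM + 1) with limma 3.58.1 (eBayes with trend) in R 4.3.3, 3D against 2D, two-sided, and p-values were adjusted by Benjamini-Hochberg over the whole set. Alternatives kept these genes unless the filter itself was changed or mitochondrial genome genes were left out. In the latter fit TPM was rescaled over the remaining genes. The fit was also run on simulated data. The outcome is not given here, so that run is no support for the calls. Named were every tested gene of the family, and of the signalling list the 8 largest called increases, the 4 largest called decreases and 11 fixed genes. Genes and lists were chosen with earlier results of these data known. Coordinates came from GENCODE 29 on GRCh38. Figures used matplotlib 3.10.9 in Python 3.11.15.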

Additional observations from a re-analysis of the deposited data

How the results depend on the processing

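Of the genes of the family, 4 were called higher and 0 lower in 3D. Higher calls numbered 2 with no filter, 2 when genes had to average 5 TPM and 7 without both libraries numbered 3, and 1 to 7 when 1 library was left out. Lower calls numbered 1 with median-ratio scaling, 1 without both libraries numbered 3 and 0 to 1 when 1 library was left out. Signalling genes called higher, 9 at first, numbered 3 with no filter, 2 with median-ratio scaling, 2 with quantile normalization, 10 when genes had to average 5 TPM, 13 without both libraries numbered 3 and 1 to 8 with 1 library left out. Those called lower numbered 4 without both libraries numbered 3 and 0 to 2 with 1 left out. Over all genes, 1536 higher and 319 lower became 729 and 86 with no filter, 943 and 669 with median-ratio scaling, and 869 and 576 with quantile normalization. Without both libraries numbered 3, 2289 were higher and 1239 lower, and with 1 left out 331 to 1610 were higher and 25 to 553 lower. Fewer samples or other genes enter some of these fits, and the cause was not tested otherwise.

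Signs changed only for genes that were not called. With median-ratio scaling TNFSF13 stood at -0.023 and TRADD at -0.15. TRADD stood at -0.12 with quantile normalization and -0.11 without both libraries numbered 3. LTBR stood at 0.011 without mitochondrial genome genes and 0.026 without both libraries numbered 3. With 1 library left out, TNFSF12 ranged from -0.33 to 0.21, TNFRSF1A from -0.27 to 0.15, LTBR from -0.12 to 0.15, TRADD from -0.19 to 0.16, TNFSF13 from -0.028 to 0.28, TNFSF10 from -0.044 to 0.59 and TNFRSF25 from -0.35 to 0.024.

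The labels do not say what a shared replicate number stands for, and the numbers were not taken as pairs: correlations of the deviations of same-numbered libraries were 0.101, 0.0365 and 0.185, and the first 3D library correlated more with the second 2D library, at 0.127. With the replicate block 5 genes of the family were higher and 1 lower, and 4 signalling genes were higher, beside 1479 higher and 395 lower of all 15042 genes. TNFRSF6B and TNFRSF1B were called in that fit, CASP8 too, and of the signalling genes named in the report RIPK1, BIRC2, TRAF1, MAP3K5, ADAM17 and ADAM10 were not. Raising the level of 1 TPM to 5 TPM changed the genes at or above it from 22 to 19 in 3D and from 19 to 15 in 2D. TPM holds no depth, so counting error could not be given.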
